A study of Rattus norvegicus with 2 samples.

Results

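The genes described here encode the translation initiation factors (eIFs) and elongation factors (eEFs) of rat cortical neurons. A gene was included when its current rat symbol, found by RefSeq accession or otherwise from the gene description, began with Eif followed by a digit from 1 to 6 or with Eef followed by 1 or 2. Argonaute genes, whose older descriptions call them initiation factor 2C, were to be left out, and 0 such rows were met. The rule found 61 genes, 52 Eif and 9 Eef, among the 9894 genes with at least 1 listed tag. Of these 61 genes, 60 were listed in both libraries and 1, Eif4e3, in the control library only.

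The study asked which mRNAs change when PIWIL1, a PIWI family protein that binds small RNAs and is best known from the germ line, is knocked down in neurons. Somatosensory cortex of embryonic day 16 Sprague-Dawley rats was dissociated, and the cells were electroporated either with a Scramble control plasmid or with a plasmid expressing an siRNA against PIWIL1. Both cultures were kept in serum-containing Neurobasal medium with B27 supplement for 48 h, and RNA of the whole culture was then taken, so that cells without plasmid contributed too. Each condition had 1 digital gene expression library, in which short sequence tags, each starting at a CATG site of a transcript, were counted.

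Initiation factors bring the initiator tRNA, the small ribosomal subunit and the mRNA together. In brief, eIF2 carries the initiator tRNA, eIF2B recharges eIF2 with GTP, eIF3 holds the assembly on the small subunit, the eIF4 group binds the cap and unwinds the leader, and eIF1, eIF1A, eIF5 and eIF5B govern start codon choice and subunit joining. The elongation factors then deliver aminoacyl-tRNAs (eEF1) and move the ribosome along the mRNA (eEF2). In neurons, phosphorylation of eIF2 and release of eIF4E from its binding proteins are well-known points at which protein synthesis is controlled.

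Each value below rests on tags of 21 bases. Tags of the 7 called genes and of Eef1a1, Eef1g and Eif4g2, the genes with the most copies, are shown, because the last 2 bases of a tag went along with how much its copies differed between the libraries. Eif4a1, whose total hardly differed, was added after its values were seen. The capitals mark these last 2 bases, every tag begins with the CATG of the enzyme's site, and site 1 is the CATG nearest the 3′ end of the transcript.
Eif3e, site 1: catgtttgctaaaaattttGG
Eif3e, site 3: catgtggtaatgggcaacaAT
Eif1ax, site 1: catgaccccacttcctctaTC
Eif5a, site 1: catgggctttaccctttccTG
Eif5a, site 3: catgagggagccatggcctTG
Eif2b4, site 1: catgatcccttgcagttctGT
Eif2b4, site 3: catgtgtaacgccatcaagTT
Eif6, site 1: catgagtcaccttccgtgcTG
Eif4a3, site 1: catggaaattttcccacgaAA
Eif4a3, site 2: catggaagcttctatttaaTG
Eif2b3, site 1: catggagatctgaatcctgAA
Eif4a1, site 2: catggtgacagaagaagacAA
Eif4a1, site 1: catggctggcctcatttgcTG
Eef1a1, site 1: catgaggcagacagttgctGT
Eef1g, site 1: catgtcttgccagtcacctAG
Eif4g2, site 8: catgttcatgccctgatttTA

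The control library held 3386860 clean tags, of which 57.5% were assigned to genes (1947600 copies), and the PIWIL1 RNAi library held 3303344, of which 56.5% were assigned (1865913 copies). The floor of detection was set at 3 copies, which is 0.886 TPM for the control and 0.908 TPM for PIWIL1 RNAi, where TPM is the share of all clean tags expressed per 1000000 and is not corrected for transcript length. Piwil1 itself had 0 rows in the files, so the knockdown could not be checked from these data. All 7 neuronal markers (Tubb3, Dcx, Stmn2, Gap43, Snap25, Nefl and Rbfox3) were listed, and summed to 4122 TPM in control and 3695 TPM with PIWIL1 RNAi. Markers of neural progenitors and radial glia (6 of 7 listed, Eomes without a value) summed to 1018 and 1307 TPM, and collagen genes of fibroblasts (3 of 3) to 539 and 516 TPM. The sums for astrocytes (3 of 4, Aqp4 without a value) were 81.2 and 74.5 TPM, for the oligodendrocyte lineage (4 of 4) 5.02 and 3.94, for microglia (3 of 4, Cx3cr1 without a value) 15.9 and 18.5, and for red blood cells (3 of 3) 28.1 and 45.4. Of the endothelial and mural markers, 1 of 4 was listed, at 0 and 0.605 TPM, and Cldn5, Pecam1 and Rgs5 had no value. The part of these shifts in the values of the translation factors was not tested, and in a culture of mixed cells fewer cells of a type and less RNA per cell cannot be told apart.

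As a group, the translation factors held nearly the same share of both transcriptomes. They took 47616 copies (14059 TPM, 2.44% of the copies on genes) in the control library and 43962 copies (13308 TPM, 2.36%) with PIWIL1 RNAi, a log2 ratio of -0.08 for the sum (95% exact interval -0.10 to -0.06). Much of this small difference lay in Eef1a1, since without it the sums were 37032 and 35742 copies, a log2 ratio of -0.02. The log2 ratio of TPM, PIWIL1 RNAi over control, had a median of -0.09 over the 60 genes listed in both libraries (quartiles -0.34 and 0.19), beside -0.08 over all 8899 genes listed in both (quartiles -0.44 and 0.23). The ratio was under 0 for 39 genes and over 0 for 21, which is 65% under 0 beside 56.7% of all genes. With TMM scaling the median of the translation factors was 0.00 and that of all genes 0.01.

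**Figure D1:**
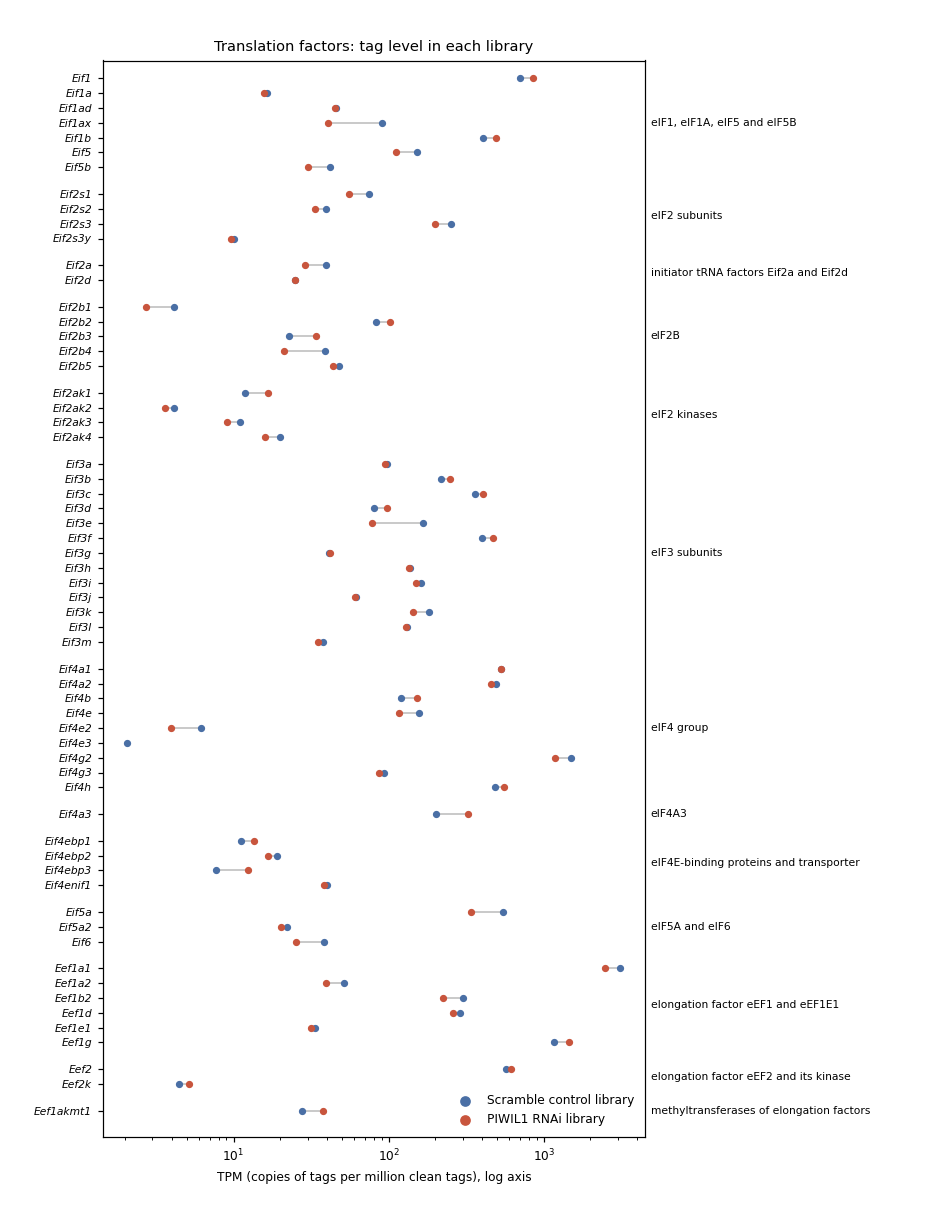
Level of each of the 61 translation factors in the Scramble control library (blue) and the PIWIL1 RNAi library (red), in TPM on a log axis, grouped by role; each point is 1 library and the grey line joins the pair. Most pairs lie close together, Eef1a1 stands farthest right at 3125 and 2488 TPM, and the widest gaps among well-counted genes are those of Eif1ax and Eif3e.

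A gene was called when Fisher's exact test on its copies gave a Benjamini-Hochberg false discovery rate (FDR) of 0.05 or less over all 9894 genes and its log2 ratio was at least 0.58 in size. By this rule 5 of the 61 translation factors were called lower in the PIWIL1 RNAi library (8.20%, where the share over all genes was 5.97%) and 2 were called higher (3.28%, all genes 2.96%). The 5 lower genes were Eif3e, Eif1ax, Eif5a, Eif2b4 and Eif6, and the 2 higher genes were Eif4a3 and Eif2b3. By the FDR alone, 13 were lower (21.3%, all genes 9.53%) and 12 higher (19.7%, all genes 7.14%). Translation factors were counted more deeply than most genes, with a median of 437 copies in both libraries together beside 86.5 for all genes. Among genes with 100 copies or more, of which 51 are translation factors and 4692 are tested genes in all, the FDR shares were 25.5% lower (all such genes 16%) and 23.5% higher (13.4%), and the called shares 9.80% lower (8.46%) and 3.92% higher (4.62%). With 1 library per condition there is no replicate check, and the test speaks of these libraries and cannot speak of the conditions, and the intervals hold counting error only. If cultures of 1 condition were taken to vary by 0.1 (edgeR's exact test, coefficient of variation), Eif3e, Eif1ax and Eif4a3 were still called, and at 0.2 no translation factor was.

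**Figure D2:**
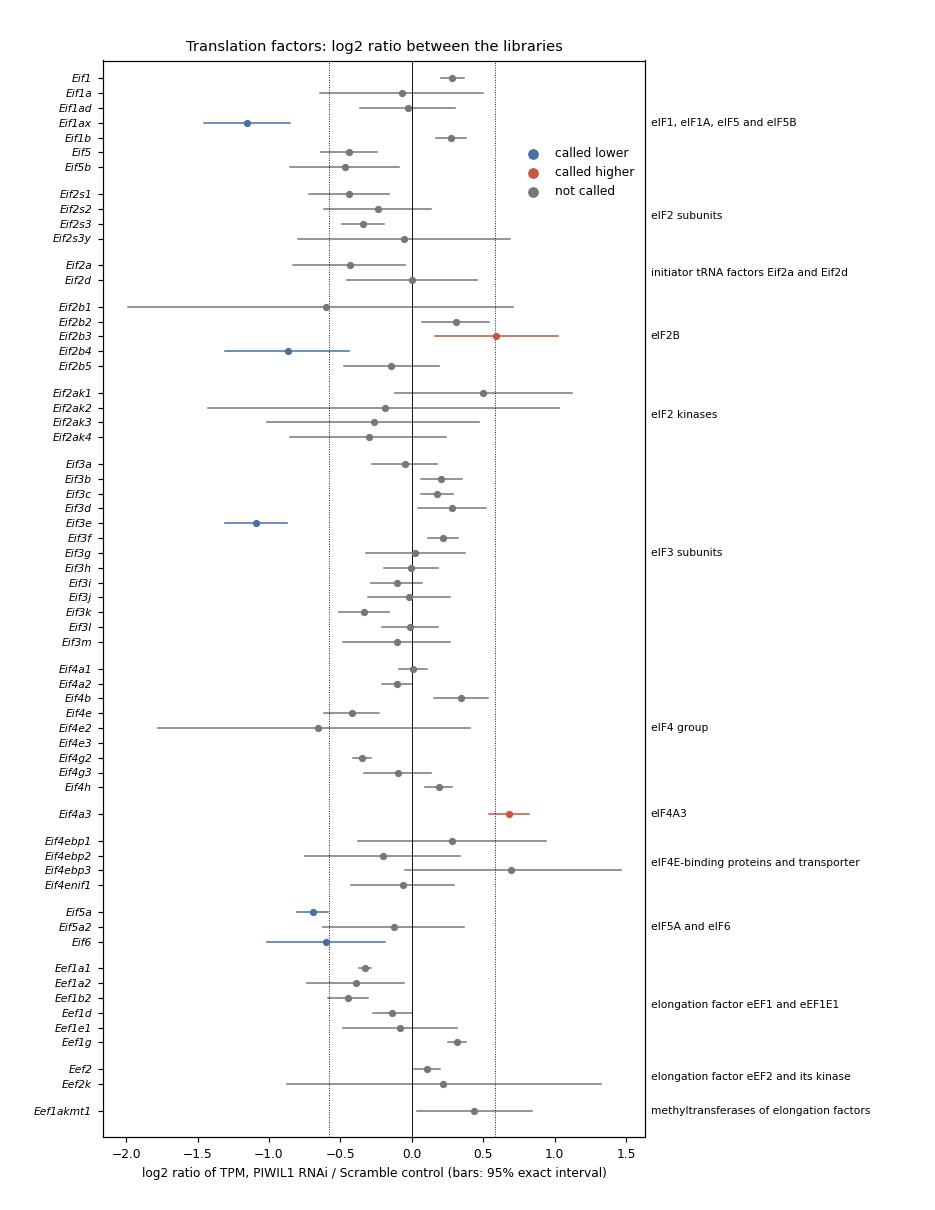
The log2 ratio of TPM, PIWIL1 RNAi over Scramble control, for the 60 translation factors listed in both libraries, grouped by role, with 95% exact intervals that cover counting error only. Dotted lines stand at 0.58 on either side of 0, blue points are the 5 genes called lower, red points the 2 called higher, and the intervals of 28 of the 61 genes include 0.

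Among the factors of start codon selection and subunit joining, the eIF1A gene Eif1ax was lower and both eIF1 genes were higher. Eif1ax, whose product opens the small subunit for scanning, had 305 copies (90.1 TPM) in the control and 134 copies (40.6 TPM) with PIWIL1 RNAi, a log2 ratio of -1.15 (-1.45 to -0.85, FDR = 2.7e-13 by Fisher's exact test). Eif1, which guards start codon choice, had 2370 and 2815 copies (0.28, FDR = 5.5e-13), and its close relative Eif1b 1384 and 1630 copies (0.27, FDR = 3.9e-07). These rises of 1.22-fold and 1.21-fold passed the FDR but not the ratio threshold, and each lay in the most copied tag of the gene. Outside that tag Eif1 had 451 and 410 copies (-0.10) and Eif1b 456 and 327 (-0.44). Eif5, the GTPase activator of eIF2, had 514 and 370 copies (-0.44, FDR = 0.00036). Eif5b, which joins the subunits, had 142 and 100 copies (-0.47, FDR = 0.099). Eif1ad, grouped here by its symbol alone, had 156 and 149. Eif1a, another eIF1A gene in these tables, had 56 and 52 copies and is the one translation factor with tags ending in a run of 8 or more A, which held 37.0% of its copies.

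The genes of all 3 eIF2 subunits had a ratio under 0. Eif2s1, the alpha subunit phosphorylated in the stress response, had 254 and 183 copies (-0.44, -0.72 to -0.16, FDR = 0.025). Eif2s3, the gamma subunit that binds GTP and the initiator tRNA, had 857 and 659 copies (-0.34, FDR = 0.00032). Both passed the FDR, neither was called, and after correction for the tag end neither passed, at -0.36 (FDR = 0.11) for Eif2s1 and -0.16 (FDR = 0.27) for Eif2s3. Eif2s3y, the Y-linked counterpart of Eif2s3, had 34 and 32 copies, and Eif2s2, the beta subunit, did not pass with 133 and 110 copies (FDR = 0.53). The copies of these 4 genes summed to 1278 and 984, a log2 ratio of -0.34. Eif2a and Eif2d, which can bring initiator tRNA to the ribosome apart from eIF2, had 133 and 96 copies (-0.43, FDR = 0.14) and 84 and 82 copies.

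The 5 subunits of eIF2B, the exchange factor that recharges eIF2 with GTP, did not move together. Eif2b4 (delta) had 131 copies (38.7 TPM) in the control and 70 (21.2 TPM) in the PIWIL1 RNAi library (-0.87, -1.31 to -0.44, FDR = 0.00091) and was called lower. Eif2b3 (gamma) had 77 copies (22.7 TPM) and 113 copies (34.2 TPM), a log2 ratio of 0.59 (0.16 to 1.03, FDR = 0.026), just over the threshold, and was called higher. Eif2b2 (beta) passed the FDR only, with 281 and 339 copies (0.31, FDR = 0.030). Eif2b5 (epsilon), the catalytic subunit, had 163 and 144 copies (-0.14, FDR = 0.72), and Eif2b1 (alpha) 14 and 9. The summed copies of the 5 subunits were 666 and 675. The 4 eIF2 kinases were thinly counted and none passed the test: Eif2ak1 (HRI) had 40 and 55 copies, Eif2ak2 (PKR) 14 and 12, Eif2ak3 (PERK) 37 and 30, and Eif2ak4 (GCN2) 67 and 53. Their intervals were wide, for example -0.12 to 1.12 for Eif2ak1, and no difference was detectable at this depth.

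Of the 13 eIF3 subunits listed, Eif3e stood apart from the rest. Eif3e had 563 copies (166 TPM) in the control and 258 copies (78.1 TPM) with PIWIL1 RNAi, a log2 ratio of -1.09 (-1.31 to -0.87, FDR = 2.9e-22), while the other 12 lay between -0.34 and 0.28. Eif3k, a peripheral subunit, was lower by the FDR (614 and 474 copies, -0.34, FDR = 0.0045). The core subunits Eif3b (734 and 826 copies, 0.21, FDR = 0.013) and Eif3c (1221 and 1346, 0.18, FDR = 0.0043), and Eif3f (1361 and 1544, 0.22, FDR = 8.9e-05), were higher by the FDR and not called. Eif3a, the largest core subunit, had 332 and 313 copies (-0.05, FDR = 0.96), and Eif3d, Eif3g, Eif3h, Eif3i, Eif3j, Eif3l and Eif3m did not pass either. The summed copies of the 13 subunits were 7025 and 6912, a log2 ratio of 0.01. None of the 12 other subunits was called.

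In the eIF4 group no gene was called. Eif4e, the cap-binding protein, had 529 and 386 copies (-0.42, -0.61 to -0.23, FDR = 0.00062), and Eif4g2 (DAP5), a scaffold related to eIF4G that lacks the eIF4E-binding part, had 5078 and 3889 copies (1499 and 1177 TPM, -0.35, -0.41 to -0.29, FDR = 5.2e-24). In contrast Eif4b and Eif4h, which stimulate the helicase, were higher by the FDR, Eif4b with 408 and 505 copies (0.34, FDR = 0.0015) and Eif4h with 1649 and 1832 copies (0.19, FDR = 2.0e-04). The rise of Eif4b lay in its site 1 tag, which ends in a run of A (200 and 332 copies, 0.77), while 4 of its 5 tags with 20 copies or more were lower and the copies outside the site 1 tag gave -0.23. After correction for the tag end Eif4b stood at 0.05 (FDR = 0.73). The helicase genes themselves had nearly equal totals, 1790 and 1756 copies for Eif4a1 (0.01, FDR = 0.72) and 1674 and 1519 for Eif4a2 (-0.10, FDR = 0.34). With the same correction Eif4a1 stood at 0.06 (FDR = 0.28), whereas Eif4a2 stood at -0.29 (FDR = 4.5e-06) and was lower by the FDR. Without tags ending in TG, GT or GG, Eif4a1 stood at 0.23 (FDR = 9.0e-04) and Eif4a2 at -0.12 (FDR = 0.13). Eif4g3 had 316 and 288 copies and Eif4e2 21 and 13. Eif4e3 had 7 copies in the control library and 0 in the PIWIL1 RNAi library, which is at least 2.28-fold lower when the floor of 3 copies stands for the 0, and did not pass (FDR = 0.081). The eIF4E-binding proteins Eif4ebp1 (38 and 45 copies), Eif4ebp2 (65 and 55) and Eif4ebp3 (26 and 41) and the transporter Eif4enif1 (136 and 127) gave 0 genes past the FDR.

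Eif4a3, a helicase of the eIF4A family that acts in the exon junction complex rather than at the cap, was called higher. It had 685 copies (202 TPM) in the control and 1071 copies (324 TPM) with PIWIL1 RNAi, a log2 ratio of 0.68 (0.54 to 0.82, FDR = 3.9e-22). Its tags did not all rise. The site 1 tag, which held 86.4% of the copies, went from 553 to 964 copies (0.84, 0.69 to 0.99), the site 2 tag shown above from 71 to 22 (-1.65, -2.42 to -0.95), and the copies outside the site 1 tag together gave -0.27.

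Eif5a, the hypusine-carrying factor that helps ribosomes through difficult peptide bonds, had 1857 copies (548 TPM) in the control and 1121 copies (339 TPM) with PIWIL1 RNAi, a log2 ratio of -0.69 (-0.80 to -0.58, FDR = 4.7e-33). Its relative Eif5a2 had 75 and 67 copies (-0.13, FDR = 0.90). Eif6, which keeps the ribosomal subunits apart, had 129 copies (38.1 TPM) and 83 copies (25.1 TPM), a log2 ratio of -0.60 (-1.02 to -0.19, FDR = 0.032), close to the threshold.

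As deposited, the elongation factors did not all go the same way. Eef1a1, which delivers aminoacyl-tRNA, had 10584 copies (3125 TPM) in the control and 8220 copies (2488 TPM) with PIWIL1 RNAi, a log2 ratio of -0.33 (-0.37 to -0.29, FDR = 2.5e-44). Eef1b2, the exchange factor for eEF1A, had 1026 and 735 copies (-0.45, -0.58 to -0.31, FDR = 4.5e-08). Eef1g, the gamma subunit of the same exchange complex, went the other way with 3948 and 4791 copies (1166 and 1450 TPM, 0.32, 0.25 to 0.38, FDR = 3.1e-26). The delta subunit Eef1d (973 and 864 copies, -0.14, FDR = 0.31) and the Eef1a2 form of mature neurons and muscle (175 and 130, -0.39, FDR = 0.13) did not pass. Neither did Eef1e1, which is grouped here by its symbol alone (113 and 104). Eef2, the translocase, had 1934 and 2030 copies (0.11, 0.01 to 0.20, FDR = 0.029), and its kinase Eef2k 15 and 17. After correction for the tag end Eef1a1 stood at -0.06 (FDR = 0.36) and Eef2 at 0.10 (FDR = 0.052), and neither passed. Eef1b2 at -0.51 (FDR = 2.0e-10) and Eef1g at 0.15 (FDR = 6.5e-07) still passed. The lysine methyltransferase Eef1akmt1 had 94 and 124 copies (0.44, FDR = 0.10).

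The copies of a gene are the sum of its tags, and the tags of 1 gene often disagreed. The 61 genes had 557 tags, of which 223 had 20 copies or more in both libraries together, and 134 of these (60.1%) were lower in the PIWIL1 RNAi library, beside 55.3% of all 16021 such tags. The ratio went along with the last 2 bases of the tag. Of the 39 tags that ended in TG, GT or GG, 37 were lower, with a median log2 ratio of -0.90, while of the other 184 tags 97 were lower, with a median of -0.06. The same held over all genes, where 79.5% of 2189 tags with these ends were lower (median -0.63) and 51.4% of 13832 other tags (median -0.03). Among tags with 20 copies or more, 25 translation factors had both kinds, and the copies of each kind were summed per gene. In 25 of 25 the sum over tags ending in TG, GT or GG had the lower ratio, by a median of 0.86 on the log2 scale. In Eif3a the ratio of its TG tag was close to 0 (68 and 65 copies, -0.03). These ends held 18.3% of the copies of the translation factors and 10.1% of the copies on all genes. These 3 ends were singled out after their values had been seen. When the most copied tag of each gene was set aside, the rest went the other way in 2 of the 13 genes lower by the FDR (Eif2b4 and Eif6) and in 7 of the 12 higher ones (Eif1, Eif1b, Eif2b2, Eif3c, Eif3f, Eif4b and Eif4a3). In these 7 the rest ran from -0.82 (Eif3f, 69 and 38 copies) to -0.03 (Eif2b2, 42 and 40 copies). The matching share over all genes is not given here, so these counts are not read as particular to translation factors.

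In Eif4a1 the 2 most copied tags went in opposite directions. Its site 2 tag, ending in AA, had 657 and 819 copies (0.35, 0.20 to 0.50), its site 1 tag, ending in TG, had 522 and 266 (-0.94, -1.16 to -0.72), and the gene total was nearly equal. The ends did not sort all of its tags, since the site 3 tag ending in GG had 130 and 155 copies (0.29) and the site 6 tag ending in TT had 74 and 46 (-0.65). In Eef1a1 the site 1 tag ending in GT had 5071 and 3329 copies (-0.57, -0.63 to -0.51), whereas the site 4 tag ending in TA had 536 and 711 (0.44, 0.28 to 0.61). In Eif4g2 the difference was spread more evenly, 13 of its 14 tags with 20 copies or more being lower, among them the site 8 tag ending in TA with 2180 and 1753 copies (-0.28, -0.37 to -0.19). In Eef1g 1 tag, at site 1, held most copies (3852 and 4685, 0.32, 0.26 to 0.38), and the tags at sites 2 and 3 were lower, with 28 and 12 and with 24 and 15 copies. The site 2 tag ends in TG, and the interval of the site 3 tag includes 0 (-1.68 to 0.35). All copies outside the site 1 tag together were 96 and 106 (0.18).

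Of the 5 genes called lower, 4 had a most copied tag with such an end, beside 8 of all 61 translation factors. In Eif6 the site 1 tag ending in TG had 96 and 42 copies (-1.16, -1.72 to -0.62), while the tags at sites 3 and 2 had 23 and 27 and 7 and 14 copies. In Eif2b4 the site 1 tag ending in GT had 113 and 49 copies (-1.17, -1.68 to -0.67), and the site 3 tag 18 and 21. Without tags ending in TG, GT or GG, Eif6 stood at 33 and 41 copies (0.32) and Eif2b4 at 18 and 21 copies (0.23), so both ratios changed sign. In Eif5a, whose tags at sites 1 and 3 end in TG and had 893 and 575 (-0.60) and 539 and 208 copies (-1.34), the ratio without such ends was -0.22 (FDR = 0.245). Eif3e still passed without them, with 61 and 31 copies (-0.97, FDR = 0.022), and its site 3 tag alone had 40 and 20 copies (-0.96, -1.82 to -0.16).

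The ratio of Eif1ax was nearly the same with and without these ends. All 4 of its tags with 20 copies or more were lower, the site 1 tag ending in TC with 183 and 67 copies (-1.41), the site 2 tag with 40 and 13, the site 9 tag with 25 and 22 and the site 3 tag with 24 and 17. The intervals of the site 9 and site 3 tags include 0. Without tags ending in TG, GT or GG the gene stood at 297 and 134 copies (-1.14), and Eif4a3 at 601 and 1038 copies (0.79), both still called.

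**Figure D3:**
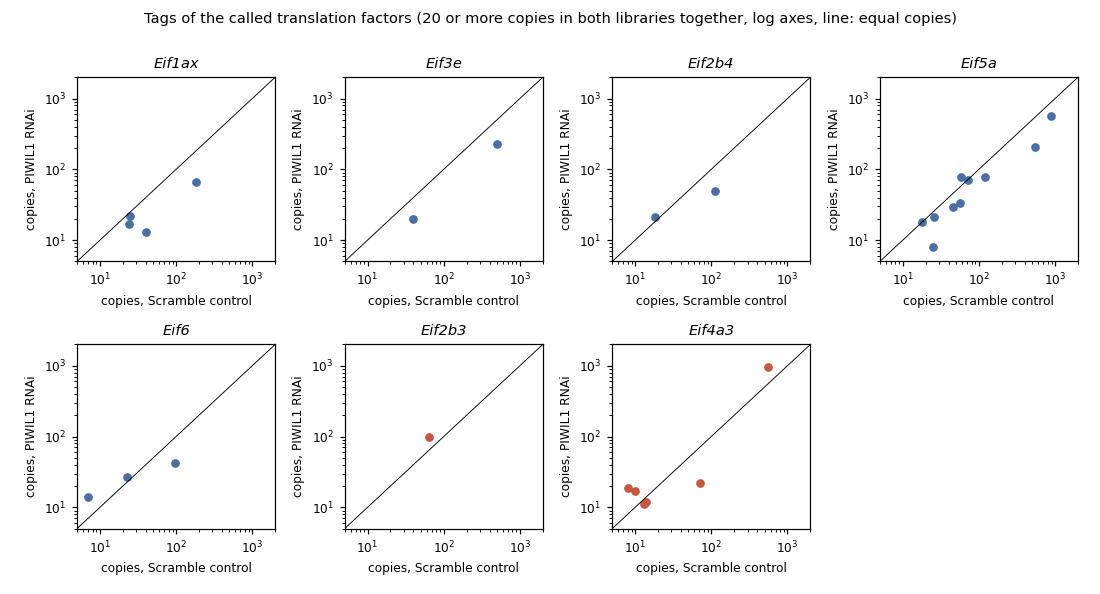
Copies of each tag in the Scramble control library (horizontal) and the PIWIL1 RNAi library (vertical), log axes, for the 7 called genes, tags with 20 copies or more in both libraries together; points below the line of equal copies were lower with PIWIL1 RNAi. The 4 tags of Eif1ax and both tags of Eif3e lie below the line, those of Eif2b4, Eif5a and Eif6 lie on both sides of it or on it, and in Eif4a3 the most copied tag lies above and 3 of 6 below.

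When every tag was instead corrected by the median log2 ratio of its tag-end class over other genes, 2 translation factors were called lower (3.28%, all genes 3.70%) and 0 higher (0%, all genes 1.89%). The 2 genes were Eif1ax, at -1.15 before and after, and Eif3e, at -1.09 before and -0.64 after. Eif5a moved from -0.69 to -0.25, Eif2b4 from -0.87 to -0.39, Eif6 from -0.60 to -0.25 and Eif2b3 from 0.59 to 0.44. Eif4a3 moved from 0.68 to 0.51 and kept an FDR of 1.6e-12. By the FDR alone, 6 genes were lower (9.84%, all genes 6.60%) and 6 higher (9.84%, all genes 5.43%) after the correction. Of the 13 lower before it 5 were still lower, and of the 12 higher before it 6 were still higher. Eif4a2 passed as lower only after the correction, at -0.29 (FDR = 4.5e-06). Its site 1 tag, ending in AA, held 96.4% of its copies (1606 and 1472, -0.09). Without tags ending in TG, GT or GG, Eif4a2 stood at -0.12 and did not pass (FDR = 0.13). The 8 lower genes that no longer passed were Eef1a1, Eif2b4, Eif2s1, Eif2s3, Eif3k, Eif4e, Eif5 and Eif6, and the 6 higher ones were Eef2, Eif2b2, Eif2b3, Eif3c, Eif3f and Eif4b. Eef1b2 (-0.51) and Eif4g2 (-0.33) were among the lower ones and Eif4h (0.42) and Eef1g (0.15) among the higher ones, whereas Eef1a1 stood at -0.06 (FDR = 0.36) and Eif4e at -0.12 (FDR = 0.63). Before the correction the values of Eif4h and Eef1g had been 0.19 and 0.32.

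**Figure D4:**
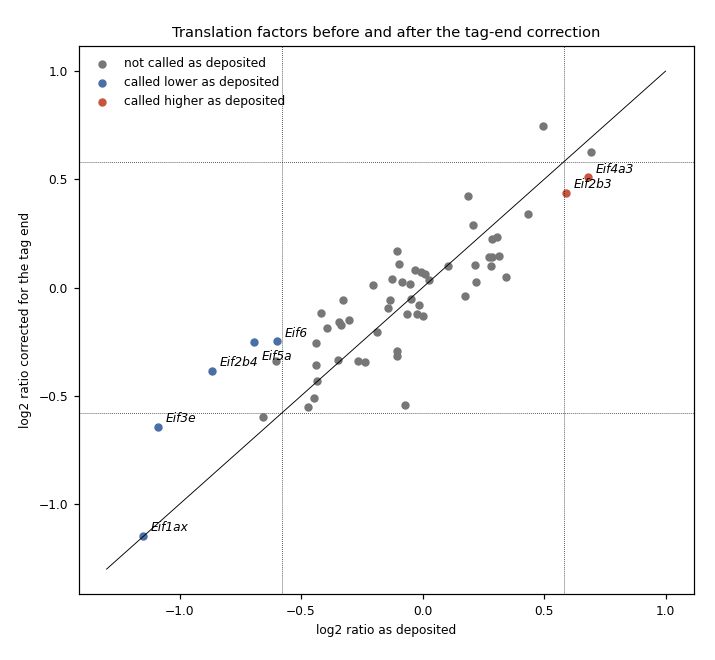
The log2 ratio of each translation factor as deposited (horizontal) against the ratio after correction for the tag end (vertical), for the 60 genes listed in both libraries; the diagonal marks equal values and dotted lines stand at 0.58 on either side of 0. Eif1ax keeps its place, Eif3e stays past the lower line at -0.64, and Eif5a, Eif2b4, Eif6, Eif2b3 and Eif4a3 lie inside the dotted lines after the correction.

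Of 46 related genes of translation control, 37 were listed, and the 36 in both libraries had a median log2 ratio of -0.14. Of the 37, 3 were called lower (8.11%, beside 5.97% of all genes) and 0 higher (2.96% of all genes). Mcts1, which works with Denr in reinitiation, had 471 and 214 copies (-1.10, FDR = 6.7e-19), but without tags ending in TG, GT or GG 138 and 107 (-0.36, FDR = 0.23), and was then not called. After the tag-end correction it stood at -0.75 (FDR = 1.5e-08) and was called. Rps6kb1, the S6 kinase downstream of mTOR, had 54 and 24 copies (-1.13, FDR = 0.012), and Dph6, of the pathway that makes the diphthamide of eEF2, had 35 and 10 (-1.77, FDR = 0.0031). By the FDR alone 6 were lower (16.2%, all genes 9.53%), adding the poly(A)-binding protein gene Pabpc1 (813 and 621 copies, -0.35), its partner Paip2 (500 and 385, -0.34) and the termination factor gene Gspt1 (1430 and 970, -0.52). The 4 that were higher by the FDR (10.8%, all genes 7.14%) were Tpt1 (8904 and 10958 copies, 0.34), Mknk2 (751 and 952, 0.38), a kinase of eIF4E, Abcf1 (430 and 549, 0.39) and Bzw2 (1443 and 1543, 0.13). Most of the related genes listed had 100 copies or more. Over all genes of that depth the FDR shares were 16% lower and 13.4% higher, and the called shares 8.46% and 4.62%. After the tag-end correction Tpt1, Mknk2 and Abcf1 still passed the FDR, and Bzw2 stood at -0.06 (FDR = 0.74). Outside its most copied tag Abcf1 had 91 and 80 copies (-0.15). Dhps and Dohh, the enzymes that make the hypusine of eIF5A, had 331 and 375 and 640 and 599 copies and did not pass (FDR = 0.12 and 0.87).

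Several of these genes have near-identical relatives, such as Eif1 and Eif1b, Eif1a and Eif1ax, Eif2s3 and Eif2s3y, Eif4a1 and Eif4a2, or Eef1a1 and Eef1a2. How tags that match several genes were assigned is not given in the sources used here, so the division of copies within such pairs is uncertain.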

How the data were processed

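The authors deposited, for each gene of each library, a count, which is the sum of the copies of its tags, the tags themselves with their sites, and a TPM, which the authors scaled to all clean tags and not to transcript length. No tag had fewer than 2 copies. The clean-tag totals were computed from the summed counts and the summed TPM. The submitters' notes name build rn4, and the program that matched tags is not given in the sources used here. Symbols came from a RefSeq table of another build (GRCr8) by accession (56 of the 61 genes) or from the deposited description (5), so no genomic positions are given. The genes, their roles, the related genes and the markers were chosen with earlier results of these data known.

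Counts were tested per gene by two-sided Fisher's exact test against all other copies on genes, with Benjamini-Hochberg adjustment over 9894 genes. The log2 ratio is that of TPM, with exact (Clopper-Pearson) 95% intervals on clean tags, so an interval and an FDR can differ slightly near the threshold. The quasi-likelihood test of edgeR needs replicates and could not be fitted. Simulated counts of this comparison held 9894 genes, 200 of them changed, with counting error only. The changed genes were drawn from those with 100 copies or more. On these counts the test found 80.9% of 1.75-fold, 95.2% of 2-fold and 100% of 4-fold changes and called 5 unchanged genes. Changes in genes with fewer copies, variation between cultures and differences by tag end were not covered. All 61 genes may be named, those called or with an FDR of 0.05 or less with full values, and tags are shown for the called and the 3 most copied genes, and for Eif4a1. For the tag-end correction each tag had a class, the last 2 bases or a final run of 3 to 13 A, longer runs counting as 13. The shift of a class was its median log2 ratio less that of all tags, both estimated on the other part of the genes. The copies of each tag were changed by equal and opposite parts of this shift in the 2 libraries. Each library was then rescaled to its total before the test. The alternatives used edgeR 4.0.16 (TMM factors 1.02 and 0.976, and exact tests with an assumed coefficient of variation), DESeq2 1.42.0 (size factors 1.04 and 0.959), R 4.3.3, SciPy 1.17.1 and pandas 2.3.3. Leaving out tags ending in TG, GT or GG was added after seeing the data.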

Additional observations from a re-analysis of the deposited data

How the results depend on the processing

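No paired analysis was possible because each group had 1 library, and no replicate could be left out. The 5 translation factors called lower and 2 called higher became 2 and 1 with edgeR's exact test at an assumed coefficient of variation of 0.1, 0 and 0 at 0.2, 0 and 0 at 0.4, 2 and 0 after the tag-end correction, 2 and 0 at a log2 threshold of 1, 13 and 12 with no log2 threshold, and 2 and 1 without tags ending in TG, GT or GG. The 3 related genes called lower became 2 at 0.1, 0 at 0.2 and 0.4, 2 without tags ending in TG, GT or GG (Mcts1 lost), 4 with the most copied tag alone and 6 with no log2 threshold, and the 0 called higher became 1 (Tsc2) after the tag-end correction and 4 with no log2 threshold. The median log2 ratio of the translation factors changed sign with TMM (0.0037), by which all genes also moved, from -0.08 to 0.01. All genes called went from 591 lower and 293 higher to 459 and 398 with TMM and to 475 and 382 with DESeq2's size factors, and Eif6 was then not called (-0.51 and -0.52). Eif3c changed sign after the tag-end correction (-0.037), and Eif2b4 (0.23) and Eif6 (0.32) without tags ending in TG, GT or GG. The low-count filters, the added or restored copies, the most copied tag alone and the sum per symbol kept each of the 7 calls. So did the removal of tags ending in 8 or more A, which among the translation factors only Eif1a had. The most copied tag alone also added calls, with 6 translation factors lower and 3 higher, Eif4b (0.77) among the higher. By that setting 564 of all genes were called lower and 381 higher. Depth limits the 10 translation factors with fewer than 100 copies most.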
